A study of Rattus norvegicus with 6 samples.

Results

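Cish and the suppressor of cytokine signalling (SOCS) genes form a family of 8, Cish and Socs1 to Socs7. They were taken as the array probe sets annotated with exactly 1 gene symbol of that family. Of the 8 genes, 7 were measured, among 14506 named genes in all, and Socs7 was not analysed here. Each of the 7 had a single probe set, so choosing the brightest probe set of a gene left the selection as it was.

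The data were 6 rat Affymetrix arrays in 3 groups of 2, all from RBL-2H3, a rat basophilic leukaemia line used as a mast cell model, all overexpressing Dectin-1 WT, the wild-type receptor for fungal beta-glucans. The control group was unstimulated, the curdlan group received curdlan, a particulate beta-glucan, and the R406 plus curdlan group received the Syk inhibitor R406 before curdlan. No array of parental cells or of R406 without curdlan was used here, and the labels give no dose, no time and nothing on whether the line was a single clone. Nor do they tell whether both arrays of a group stem from different cultures, and every p-value therefore rests on a spread that may be technical.

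SOCS proteins carry a central SH2 domain that binds phosphorylated tyrosines and a C-terminal SOCS box that binds elongins and a cullin to mark bound proteins for degradation. Their genes are classical feedback targets of cytokine signalling: a cytokine receptor activates Janus kinases (JAKs), these activate STAT transcription factors, and STATs switch on Cish and several SOCS genes, whose products then dampen the receptor or the kinase. In mast cells, interleukin-3 acts through JAK2 and STAT5 by this route. The design asked which genes respond to Dectin-1 and whether those responses need Syk, the kinase recruited by the receptor.

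The array medians lay between 7.204 and 7.241 log2 units, arrays of the same group correlated at 0.9975 to 0.9981 across probe sets, and pairs from different groups at 0.9939 to 0.9967. Of 15 mast cell and basophil markers, Tpsab1, Tpsb2 and Tph1 lay below the median of every array. The other 12 lay above the median of every array, among them Ms4a2, Fcer1a, Kit, Cpa3 and Hdc. The same held for 2 of 12 macrophage and neutrophil markers (Cd68 and Itgam), 1 of 10 lymphocyte markers (Lck) and 4 of 10 fibroblast and epithelial markers (Col1a1, Col1a2, Col3a1 and Krt8). The mean log2 signal of the mast cell markers was 11.54 to 11.56 on control, 11.58 to 11.59 on curdlan and 11.53 to 11.54 on R406 plus curdlan arrays.

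Cish, which encodes a SOCS protein that blocks STAT5 docking sites on cytokine receptors, was measured by probe set 10912908. Its log2 signal was 9.16 and 9.11 on the control arrays, 11.35 and 11.28 on the curdlan arrays, and 7.47 and 7.47 on the R406 plus curdlan arrays. The 3 groups did not overlap: both curdlan arrays were the highest and both R406 plus curdlan arrays were the lowest, below the unstimulated cells. The R406 plus curdlan signals lay close to the medians of those arrays (7.213 and 7.204). Whether they were above background was not tested. With curdlan, Cish rose by 2.18 ± 0.0505 log2 units (standard error of the fit, SE), a 4.54-fold change (limma, Benjamini-Hochberg adjusted p = 0.000547). With R406 before curdlan it was 14.4-fold lower than with curdlan alone, at -3.85 ± 0.0505 (adjusted p = 6.09e-05), and 3.17-fold lower than in unstimulated cells, at -1.67 ± 0.0505 (adjusted p = 0.000987). RNA was pooled over each culture, so fewer cells with a transcript and less transcript per cell cannot be told apart.

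The promoter window of Cish is shown because STATs bind a short palindromic element, TTCNNNGAA (the interferon gamma activated site, GAS), and Cish is a known STAT5 target. The windows are those of RefSeq on the build GRCr8 and run from 250 bases before to 50 bases after the annotated start, 5′ to 3′, with each TTCNNNGAA in capitals. The motif reads the same on both strands, and no matches overlap in these windows. Cish lies on the + strand at chr8:116850719-116851018 and Socs1 on the + strand at chr10:5389324-5389623.
Cish: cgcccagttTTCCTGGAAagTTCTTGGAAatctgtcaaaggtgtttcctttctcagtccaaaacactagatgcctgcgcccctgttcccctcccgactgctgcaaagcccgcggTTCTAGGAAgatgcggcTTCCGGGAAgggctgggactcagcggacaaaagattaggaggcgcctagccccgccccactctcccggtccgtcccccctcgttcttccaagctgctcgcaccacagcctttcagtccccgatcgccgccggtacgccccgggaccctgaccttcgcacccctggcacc
Socs1: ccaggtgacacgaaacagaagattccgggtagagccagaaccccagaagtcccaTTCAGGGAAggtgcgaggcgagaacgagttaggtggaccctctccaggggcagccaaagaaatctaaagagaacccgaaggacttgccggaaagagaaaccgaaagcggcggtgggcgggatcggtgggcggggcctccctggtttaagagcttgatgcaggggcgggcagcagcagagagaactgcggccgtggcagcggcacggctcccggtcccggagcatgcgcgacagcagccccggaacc

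The Cish window held 4 matches, TTCCTGGAA, TTCTTGGAA, TTCTAGGAA and TTCCGGGAA, whose first bases lay at -241, -230, -136 and -119 from the annotated start. They form a distal and a proximal pair. Of 33469 rat promoter windows of this length, 2970 (8.87%) held at least 1 match, 183 (0.547%) held at least 2 and 2 held 4, Cish and the uncharacterised LOC120095689, with 4 the most found in any window. Socs1 held 1 match, TTCAGGGAA, starting at -196. The windows of Socs3, Socs4 and Socs6 held 0, and Socs2, Socs5 and Socs7 were not matched. Whether each annotated start is the main start of transcription was not tested, and sequence outside the windows was not searched. The Socs3 window ends in an open reading frame, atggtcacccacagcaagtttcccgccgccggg, so it may cover coding sequence and not the main promoter. A count of 0 therefore does not show that a gene lacks the motif. The motifs TGANTCA, bound by AP-1, and GCGNGGGCG, bound by EGR factors, occurred in 7.33% and 4.98% of all windows on either strand and in 0 of the 5 windows of the family. With shares this low, 0 of 5 does not set the family apart. A match describes letters in a window and is not a bound site.

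Socs1 encodes a SOCS protein with a kinase inhibitory region that shuts off JAKs directly. Its log2 signal (probe set 10731512) was 11.2 and 11 on the control arrays, 12.6 and 12.52 on the curdlan arrays, and 9.34 and 9.31 on the R406 plus curdlan arrays. The order was the same as for Cish, with curdlan highest, control between and R406 plus curdlan lowest, and no overlap. Socs1 rose 2.75-fold with curdlan, at 1.46 ± 0.0782 (adjusted p = 0.00491). It was 9.42-fold lower with R406 than with curdlan alone, at -3.24 ± 0.0782 (adjusted p = 0.000236), and 3.42-fold lower than in unstimulated cells, at -1.77 ± 0.0782 (adjusted p = 0.00356). Without curdlan replicate 1 or 2 the rise did not pass (adjusted p = 0.0554 and 0.0519), and without R406 plus curdlan replicate 1 or 2 the difference from control did not (adjusted p = 0.062 and 0.0773), with changes of 1.42 and 1.5 for the rise and -1.79 and -1.76 for the difference.

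Socs3 also carries a kinase inhibitory region and is best known for restraining receptors that share gp130 and activate STAT3. Its log2 signal (probe set 10749372) was 7.59 and 7.74 on the control arrays, 8.28 and 8.38 on the curdlan arrays, and 7.24 and 7.29 on the R406 plus curdlan arrays. The groups again kept the order curdlan, control, R406 plus curdlan without overlap. The R406 plus curdlan signals lay close to the medians of those arrays (7.213 and 7.204), and whether they were above background was not tested. Socs3 rose by 0.66 ± 0.0722 with curdlan, 1.58-fold (adjusted p = 0.0294), and was 2.08-fold lower with R406 than with curdlan alone, at -1.06 ± 0.0722 (adjusted p = 0.00352). Its difference between R406 plus curdlan and control, -0.40 ± 0.0722, missed the threshold (adjusted p = 0.0676). The rise with curdlan did not pass when any single array was left out, with changes of 0.59 to 0.74: adjusted p was 0.124 and 0.119 without control replicates 1 and 2, 0.112 and 0.165 without curdlan replicates 1 and 2, and 0.106 without R406 plus curdlan replicate 1 or 2.

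Socs2 encodes a regulator of growth hormone signalling. Its log2 signal (probe set 10901996) was 11.65 and 11.63 on the control arrays, 11.61 and 11.58 on the curdlan arrays, and 11.32 and 11.32 on the R406 plus curdlan arrays. The control and curdlan arrays lay close together, and both R406 plus curdlan arrays lay below all others. Its change with curdlan was -0.04 ± 0.0443 (95% interval -0.16 to 0.07, adjusted p = 0.733), so the interval leaves out a rise of the size seen for Cish, Socs1 or Socs3. Under R406 it was 1.21-fold lower than with curdlan alone, at -0.28 ± 0.0443 (adjusted p = 0.0293), and 1.25-fold lower than in control cells, at -0.32 ± 0.0443 (adjusted p = 0.0395). Neither difference passed when any single array was left out: adjusted p lay between 0.0623 and 0.181 against curdlan and between 0.0846 and 0.249 against control, with the lowest change at -0.33 and the highest at -0.26. With the replicate number as a block they had adjusted p = 0.0641 and 0.0904.

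**Figure D1:**
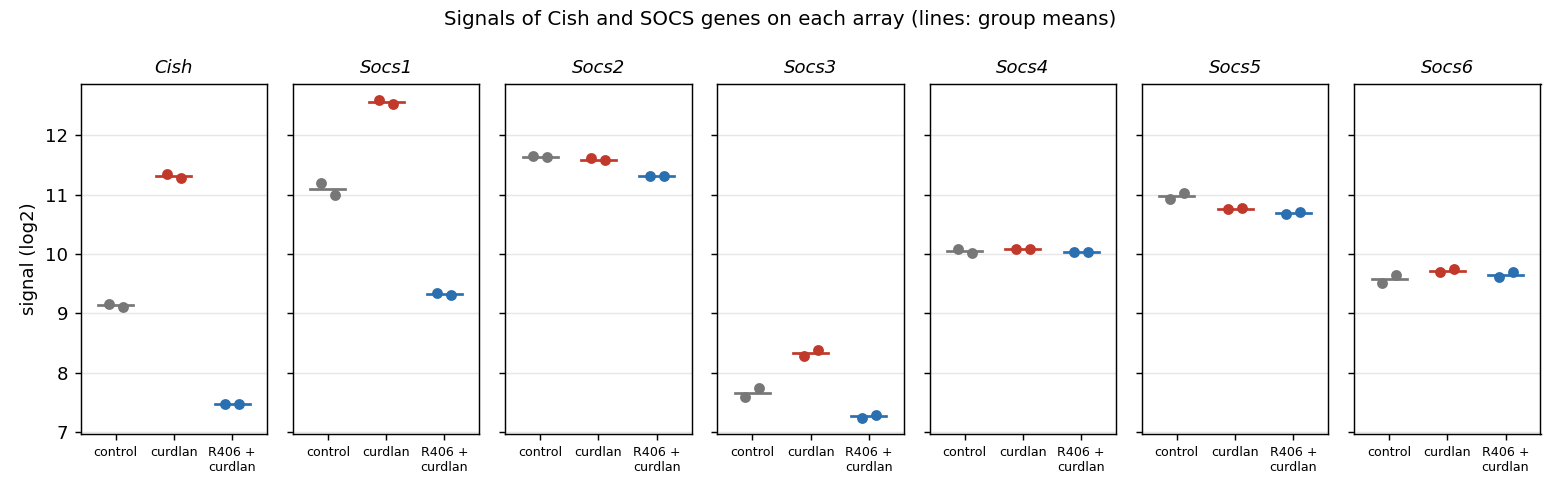
Log2 signal (y axis) of the 7 measured genes on each array, by group (x axis); each point is 1 array and each line the mean of 2. Cish, Socs1 and Socs3 were highest with curdlan and lowest with R406 plus curdlan, Socs2 was lowest with R406 plus curdlan (-0.32 against control), Socs5 was highest in control (-0.28 for R406 plus curdlan against control), and Socs4 and Socs6 overlapped between control and R406 plus curdlan; levels of different genes come from different probes and are not compared.

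Socs4, Socs5 and Socs6 encode the SOCS proteins with longer N-terminal regions; Socs4 and Socs5 act on the EGF receptor, and Socs6 binds receptor tyrosine kinases such as Kit. The log2 signal of Socs4 (probe set 10779668) was 10.08 and 10.01 on control, 10.09 and 10.08 on curdlan and 10.04 and 10.03 on R406 plus curdlan arrays. Socs5 (probe set 10882773) read 10.93 and 11.02, then 10.75 and 10.77, then 10.68 and 10.70 in the same order of groups. Socs6 (probe set 10805585) read 9.51 and 9.65, then 9.70 and 9.75, then 9.61 and 9.69.

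None of these 3 genes passed in any of the 3 comparisons with limma, while Socs5 had an unadjusted p under 0.05 with curdlan and against control under R406. Socs5 was highest in control cells, without overlap with either other group: its change was -0.21 ± 0.0513 with curdlan (adjusted p = 0.152) and -0.28 ± 0.0513 for R406 plus curdlan against control (adjusted p = 0.0674). With an intensity trend in the variance prior both Socs5 differences passed (adjusted p = 0.0252 and 0.00628), as among the brighter probe sets alone (0.035 and 0.0129). The changes of Socs4 had 95% intervals of -0.08 to 0.16 with curdlan and -0.17 to 0.08 for R406 plus curdlan against curdlan. Those of Socs6 ran from -0.03 to 0.31 and from -0.24 to 0.10, so larger changes than these lie outside the intervals.

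Counted together, 3 of the 7 genes rose with curdlan and 0 fell, 42.9% of the family, where 1.04% of all probe sets were called higher and 0.551% lower. On both curdlan arrays 4 of the 7 lay above both control arrays (19.2% of all probe sets did) and 2 lay below (23.9% did). The family's median change was 0.142 log2 units, against -0.011 over all probe sets. The count was 2 without a control or an R406 plus curdlan array, 1, Cish alone, without curdlan replicate 1 or 2, and 2 with the replicate number as a block, where Socs3 had adjusted p = 0.0538. With an intensity trend, or among the brighter probe sets alone, 3 rose and 1 fell, Socs5.

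Under R406 plus curdlan, 4 of the 7 genes fell against curdlan alone and 0 rose, 57.1% of the family, where 3.23% of all probe sets were called lower and 4.02% higher. Every measured gene of the family was lower on both R406 plus curdlan arrays than on both curdlan arrays, which held for 25.6% of all probe sets, while 27.7% were higher without overlap. The family's median difference was -0.278, against -0.002 over all probe sets. The 3 genes raised by curdlan were among the 4, and these comparisons share the curdlan arrays. Leaving out any single array gave 3, without Socs2.

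Against unstimulated cells, 3 of the 7 genes were lower under R406 plus curdlan and 0 were higher, where 0.791% of all probe sets were called lower and 1.44% higher. On both R406 plus curdlan arrays 5 of the 7 lay below both control arrays (27.8% of all probe sets did) and 0 lay above (25.7% did). The called genes were Cish, Socs1 and Socs2, and the median over the 7 genes was -0.321, against -0.01 over all probe sets. The count was 2 without a control or curdlan array and 1, Cish alone, without R406 plus curdlan replicate 1 or 2. R406 without curdlan was not measured here, so a lower unstimulated level under R406 and an inverted response to curdlan cannot be told apart, and neither can Syk and other kinases that R406 reaches.

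**Figure D2:**
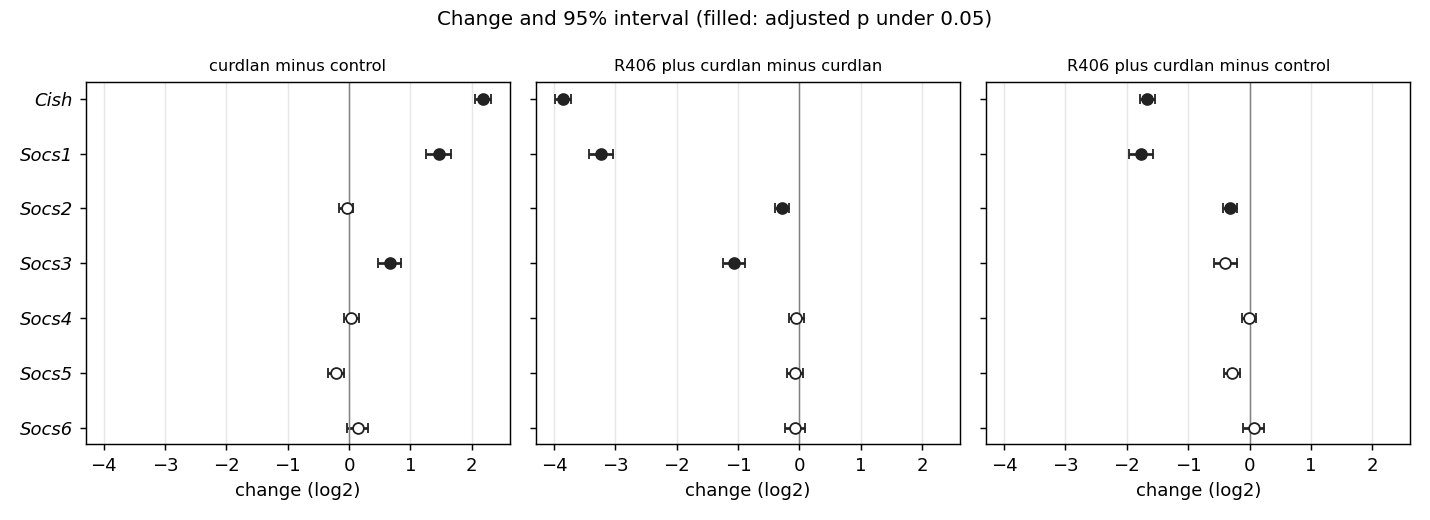
Log2 change (x axis) of each of the 7 genes (y axis) in the 3 comparisons, with its 95% interval from the fit; filled points had an adjusted p under 0.05. Cish and Socs1 lie right of 0 with curdlan and left of 0 in both comparisons with R406, at -1.67 and -1.77 against control.

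Likeness was the root mean square difference of log2 signals over the 6 arrays, after each gene's own mean was subtracted; it describes these arrays and 3 group levels drive it. Outside the family, the genes nearest to Cish were Osm, a cytokine of the gp130 family, at 0.21, the immediate early gene Ier3 at 0.32 and the ERK phosphatase gene Dusp5 at 0.41 log2 units. Within the family, Socs1 lay at 0.32 from Cish, as near as Ier3, and Socs3 at 1.14. The same 3 genes outside the family lay nearest to Socs1, in the order Ier3 at 0.06, Dusp5 at 0.14 and Osm at 0.16. Ier3 averaged 10.17 log2 units without stimulus, 11.58 with curdlan and 8.27 with R406 plus curdlan, so that it too fell below its unstimulated level.

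Outside the family, Socs3 was most like Csf1, Srf and Runx3, at 0.04, 0.06 and 0.06. Csf1 encodes a macrophage growth factor, Srf a transcription factor of growth factor responses and Runx3 a blood cell transcription factor. Csf1 had mean log2 signals of 12.56 (control), 13.17 (curdlan) and 12.14 (R406 plus curdlan). Socs2 was most like Nrp1, Spred1 and Wtip, at 0.01, 0.02 and 0.02, a close match in size because all 4 genes moved little. Spred1, which encodes an inhibitor of RAS-ERK signalling, read 12.11, 12.04 and 11.80 in the same groups. With family members left out, the same 3 genes were nearest to each of these 4 members after centring arrays on their medians, after quantile normalization and among the brighter probe sets.

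**Figure D3:**
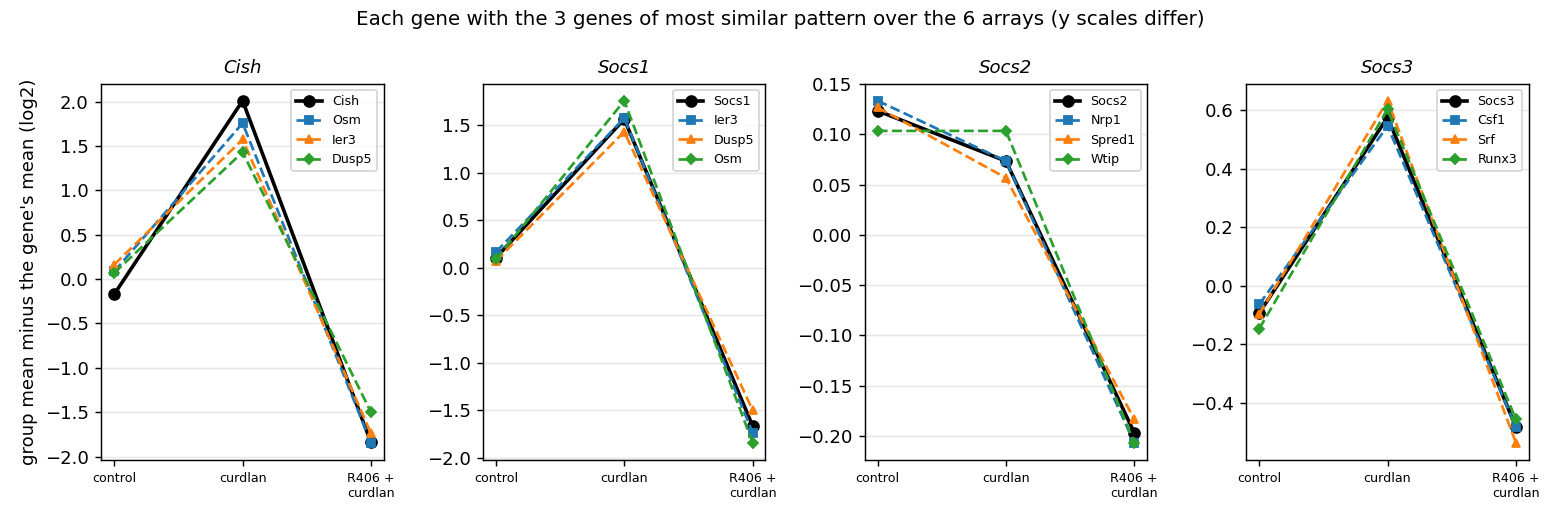
Group means of log2 signal minus the gene's own mean over the groups (y axis, whose scale differs between panels) for Cish, Socs1, Socs2 and Socs3 and the 3 genes outside the family most like each; n = 2 arrays per point. Osm, Ier3 and Dusp5 follow both Cish and Socs1, up with curdlan and below control with R406 plus curdlan.

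Genes flanking the members in the RefSeq gene order were compared next, taking the nearest measured gene on each side, which gave 14 neighbours of the 7 genes. Genes not measured were skipped, so a neighbour could lie 1 gene away, like Hemk1 from Cish, or 16, like Cbln2 from Socs6. With curdlan 0 of the 14 passed (limma, 3 at an unadjusted p under 0.05), with changes from -0.35 to 0.22. Of all probe sets 1.04% were called higher and 0.551% lower. Under R406 plus curdlan against curdlan 2 rose and 1 fell, where 4.02% of all probe sets were called higher and 3.23% lower. Hemk1, which encodes a methyltransferase and lies next to Cish, fell there by 0.36 ± 0.0452 (adjusted p = 0.0153). Dexi, beyond Socs1, rose by 0.44 ± 0.0802 (adjusted p = 0.04) and Cript, beyond Socs5, by 0.38 ± 0.0637 (adjusted p = 0.0328). Without curdlan replicate 1 or 2, or without R406 plus curdlan replicate 1 or 2, 0 of the 14 passed. Mapkapk3, on the other side of Cish, had a difference of -0.05 ± 0.0971, and Tnp2, beside Socs1, of -0.27 ± 0.0569 (adjusted p = 0.0565).

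Of the genes for ligands of JAK-coupled receptors, 30 were measured. Whether any of these ligands acted on the family in these cells was not tested. With curdlan 5 rose and 0 fell, where 1.04% of all probe sets were called higher and 0.551% lower. The 5 genes were Il3, Il13, Il4, Osm and Lif, and the list median was 0.07. Il3, the mast cell growth factor that acts through JAK2 and STAT5, averaged 7.34 log2 units on control, 11.46 on curdlan and 5.95 on R406 plus curdlan arrays. Lif, a gp130 cytokine, had 9.85, 11.12 and 8.92. Il13 and Il4, cytokines of allergic responses, rose by 3.15 ± 0.0675 and 2.26 ± 0.14. The same 5 genes fell under R406 against curdlan alone, where 3.23% of all probe sets were called lower. Against control, where 0.791% were, Osm fell by 1.93 ± 0.0574, Il3 by 1.39 ± 0.156 and Lif by 0.93 ± 0.0826. Below the array medians lay Il3 on control replicate 2 (7.1) and under R406 plus curdlan, and Il4 in control (6.23) and under R406 plus curdlan (6.02). Whether these signals were above background was not tested. The count with curdlan was 3 without control replicate 2 or either curdlan array, and that against control was 1 or 2 in each fit without an array. Csf2, Il5 and Il6 had control means of 5.03, 5.61 and 4.69 and did not pass in any comparison.

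Of 32 receptor genes, curdlan raised Il4r, the interleukin-4 receptor, by 0.51 ± 0.0544 and lowered Il9r, the interleukin-9 receptor, by 0.59 ± 0.0485. These 2 were 6.25% of the list, where 1.04% of all probe sets were called higher and 0.551% lower. Under R406 against curdlan 4 rose and 2 fell, 18.8% of the list, where 4.02% of all probe sets were called higher and 3.23% lower. The 4 were Ifnar1 at 0.58 ± 0.0533, Il6st at 0.53 ± 0.0771, Il10rb at 0.29 ± 0.0548 and Il9r at 0.29 ± 0.0485. The 2 were Ifngr2 at -0.67 ± 0.0681 and Il4r at -0.40 ± 0.0544. Il6st, which encodes gp130, lay below the array medians throughout, at means of 6.94, 6.46 and 6.99, and whether it was above background was not tested. The others form interferon, interleukin-10, interleukin-9 and interleukin-4 receptors. Against control, Ifnar1 and Il10rb were higher, at 0.46 ± 0.0533 and 0.42 ± 0.0548, and Ifngr2 lower, at -0.48 ± 0.0681. Of all probe sets 1.44% were called higher and 0.791% lower there. Csf2rb, the signalling chain of the interleukin-3 receptor, had mean log2 signals of 11.51, 11.59 and 11.54 and did not pass. The receptor count with curdlan was 0 in each fit without an array. The count under R406 was 4 when either control array was dropped, 0 when either R406 plus curdlan array was, and 0 and 1 when curdlan replicates 1 and 2 were. The count against control was 0 in each.

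Among the kinase and STAT genes, only STAT genes passed, and only under R406 against curdlan. There 1 of 6 STAT genes was called higher and 1 lower, 33.3% of the list. Of all probe sets 4.02% were called higher and 3.23% lower in that comparison. Jak1, Jak2 and Jak3 did not pass in any comparison (limma, with 0, 1 and 1 of the 3 at an unadjusted p under 0.05 in the 3 comparisons), with Jak2 at means of 10.51, 10.55 and 10.70. Of 6 STAT genes 0 passed with curdlan and 0 for R406 plus curdlan against control (2 and 3 at an unadjusted p under 0.05). Under R406 against curdlan, Stat2, an interferon signalling factor, was higher by 0.32 ± 0.0465 (adjusted p = 0.0232) and Stat3 lower by 0.23 ± 0.044 (adjusted p = 0.044), the latter not called after arrays were centred on their medians. Neither passed when any single array was left out. Stat5a and Stat5b, of which Cish is a known target, had differences of 0.12 ± 0.0475 and 0.05 ± 0.0514 there (adjusted p = 0.229 and 0.619).

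Among 14 other inhibitors of the pathway 0 passed with curdlan (limma, 4 at an unadjusted p under 0.05). Under R406 against curdlan 2 rose and 2 fell, 28.6% of the list, where 4.02% of all probe sets were called higher and 3.23% lower. Pias3, an inhibitor of STAT3, rose there by 0.76 ± 0.0529 and Cblb, a ubiquitin ligase, by 0.32 ± 0.0521. Sh2b3, an adaptor that restrains JAK2, fell by 0.42 ± 0.0566 and Ptpn6, the phosphatase SHP-1, by 0.26 ± 0.0464. The count of 4 became 2 when curdlan replicate 1 was left out and 1 when any other array was. Pias3 was also higher than in control, at 0.69 ± 0.0529, a call lost when either control or either R406 plus curdlan array was left out. The 9 elongin, cullin and linked genes that serve the SOCS box had 0 called members in the 3 comparisons (limma, 0, 1 and 0 at an unadjusted p under 0.05), with Cul5 at means of 11.19, 11.20 and 11.12. Of 24 genes for other SOCS box proteins, Vhl, whose product targets hypoxia-inducible factors, rose by 0.28 ± 0.0467 under R406 against curdlan, a call lost after quantile normalization and when any single array was left out. This 1 call was 4.17% of the list, near the 4.02% of all probe sets called higher in that comparison. The other 2 comparisons had 0 (limma, 2 and 6 at an unadjusted p under 0.05).

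Of 29 known targets of STATs, 8 rose and 1 fell with curdlan, where 1.04% of all probe sets were called higher and 0.551% lower. The list median was 0.132. The largest rises were Osm at 1.67 ± 0.0574, Lif at 1.27 ± 0.0826, the AP-1 subunit Junb at 1.16 ± 0.0462 and the survival kinase Pim3 at 0.83 ± 0.0674, and Vegfa fell by 0.72 ± 0.0428. Under R406 against curdlan 15 fell and 1 rose, where 3.23% of all probe sets were called lower and 4.02% higher. The median of the list was -0.276. The largest falls were Myc at -3.93 ± 0.0807, Osm at -3.60 ± 0.0574, Lif at -2.20 ± 0.0826 and Junb at -1.79 ± 0.0462, and the repressor gene Bcl6 rose by 2.77 ± 0.0869. Bcl6 lay below the array medians on both curdlan arrays (6.66 and 6.6) and on control replicate 1 (7.15). Whether these signals were above background was not tested. Osm and Lif stand in the ligand list too, and many of these targets also answer to other factors. The lists, this one included, were chosen with earlier results of these data known, so their counts are no independent test.

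Against control, 10 of the targets were lower under R406 plus curdlan and 1 was higher, with a median of -0.283. Of all probe sets 0.791% were called lower and 1.44% higher there. Myc fell by 3.38 ± 0.0807 and Vegfa by 0.98 ± 0.0428, and Bcl6 was higher by 2.18 ± 0.0869. The target count with curdlan was 3 without control replicate 1, 2 without control replicate 2 or either curdlan array and 4 without either R406 plus curdlan array. Under R406 against curdlan it was 13 without either control array, 10 and 11 without curdlan replicates 1 and 2 and 9 without either R406 plus curdlan array. Against control it was 3 without any single control or R406 plus curdlan array and 7 without either curdlan array.

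**Figure D4:**
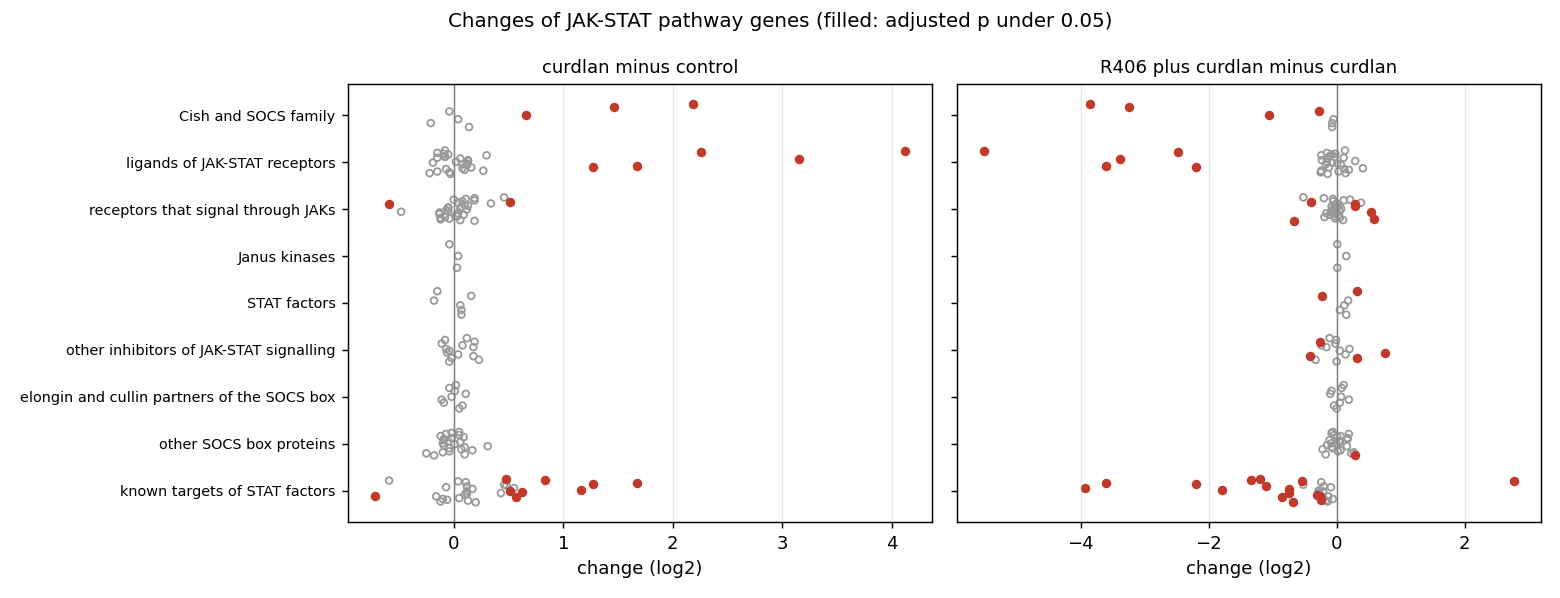
Log2 change (x axis) of each measured gene in the family and in 8 lists of JAK-STAT pathway genes (y axis), with curdlan against control on the left and R406 plus curdlan against curdlan on the right; filled points had an adjusted p under 0.05. Filled points number 3 and 4 in the family, 5 and 5 among ligands, 2 and 6 among receptors, 0 and 2 among STATs, 0 and 4 among other inhibitors, 0 and 1 among other SOCS box genes and 9 and 16 among STAT targets; Osm and Lif appear as ligands and as targets.

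In the marker lists, Tph1, a serotonin synthesis enzyme of mast cells, rose by 0.72 ± 0.0792 with curdlan and fell by 0.69 ± 0.0792 under R406 against curdlan at levels below the array medians, and Itgam fell by 0.36 ± 0.0661 there. The mean log2 signal of the 12 macrophage and neutrophil markers was 6.68 to 6.73 on control, 6.67 to 6.68 on curdlan and 6.63 to 6.65 on R406 plus curdlan arrays. Whether these shifts had a part in the results on the family was not tested.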

How the data were processed

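The authors deposited a log2 signal for each probe set on each array. The submitters' processing notes name Affymetrix Expression Console; its version, background correction and normalization, and the genome build, are not stated there. The log2 scale was inferred from the values, between 1.66 and 14.41. Biotin-labelled cDNA was made with a whole-transcript kit, per the labels' protocols. No detection call was used, and the number of arrays limits the precision.

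All 29214 probe sets (15310 with 1 gene symbol, 323 with several, 13581 with none) were fitted on 6 arrays in 1 model of 3 groups with limma 3.58.1 in R 4.3.3 (lmFit, eBayes; 3 residual and 2.16 prior degrees of freedom), without filter. Calls needed an adjusted p under 0.05, by Benjamini and Hochberg across the whole table; 95% intervals are unadjusted. The fit was tested on simulated data. Promoter windows came from RefSeq (GRCr8).

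The members and lists were chosen with earlier results of these data known. Named were all members, up to 4 called genes per direction from each list (all in lists under 10 genes), the 3 genes most like each of 4 members, and flanking genes. Genes named beyond this, such as Csf2, Csf2rb, Jak2, Stat5a, Cul5, Mapkapk3 and Tnp2, were chosen after their values were seen. Alternatives left out each array, added a replicate block, changed scaling, filter, variance prior, threshold, samples and probe set choice.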

Additional observations from a re-analysis of the deposited data

How the results depend on the processing

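No called change of a measured member changed sign under the 13 alternatives, and Cish passed in the 3 comparisons under each of them, as did Socs1 and Socs3 under R406 plus curdlan against curdlan. The 13 alternatives are not all distinct: leaving out either array of the group not compared amounts to the fit on the 4 arrays compared. The number of members called was 3 with curdlan, 4 under R406 against curdlan and 3 against control. Leaving out 1 array (2 residual degrees of freedom, the lone array taken to vary like the other groups) gave 1 to 2, 3 to 3 and 1 to 2. With an intensity trend, or with probe sets above the median signal alone, the count against control was 5, with Socs3 and Socs5 added, that with curdlan was 4, with Socs5 added as a fall, and that under R406 against curdlan was 4. The titles give the groups the same replicate numbers. Deviations of same-numbered arrays from their group means correlated at -0.115, -0.005 and 0.113. Whether such arrays share a culture or a day cannot be told from these correlations. With the replicate number as a block the counts were 2, 3 and 2. Over all probe sets, the calls were 465, 2118 and 652; they were 102, 1129 and 62 with the replicate block, 1557, 3767 and 2341 with a trend, 1572, 3717 and 2278 among the brighter probe sets, 78, 561 and 66 at an adjusted p under 0.01, and 68, 1232 and 182 with only the 4 arrays compared. Without 1 array they ran from 32 to 68, 210 to 1232 and 15 to 182. In the fits with fewer arrays or a block, fewer residual degrees of freedom were left; for the others the cause was not tested. Averaging all probe sets of a gene left the members' own values as they were, since each had 1. Signals over background could not be assessed.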
